A study of Mus musculus with 8 samples.

Results

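Postsynaptic scaffold and synaptic adhesion genes were followed in the dorsomedial hypothalamus (DMH) of mice after knockdown of Ppp1r17, a gene for an inhibitor of protein phosphatases. The set held 33 genes chosen by name, though with earlier results of these data known. They were scaffold proteins of excitatory and inhibitory synapses and adhesion molecules that join the sides of the synapse. Subunits of a calcium-dependent kinase of the postsynaptic density were included. All 33 were found among the 55487 genes listed and all 33 were among the 17339 genes tested. The study holds 8 RNA sequencing libraries, 4 with a short hairpin RNA against Ppp1r17 (shPpp1r17) and 4 with a hairpin against firefly luciferase (shfLuc), which has no target in the mouse. Every library came from DMH tissue that received a hairpin, and its title carries the mark LMD, a usual short form of laser microdissection. The sources used here give no strain, age, sex, delivery route or time after delivery. Nothing in the labels states whether libraries of a group are different animals, so the p-values reflect only how these libraries vary, and that variation may be technical.

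At an excitatory synapse, scaffold proteins stack in layers beneath the membrane. Members of the Dlg family bind receptors, Dlgap proteins link them to Shank, and Shank binds Homer, which reaches metabotropic receptors and calcium stores. At an inhibitory synapse, gephyrin holds glycine and GABA-A receptors in place. Neuroligins, Lrrtm proteins and Il1rapl1 on the postsynaptic side bind neurexins or receptor phosphatases such as Ptprd on the presynaptic side, while Cadm proteins bind each other across the cleft. DMH neurons include glutamatergic and GABAergic cells, and a tissue sample holds both kinds of synapse.

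The libraries held 23070147 to 33907984 estimated reads. Ppp1r17 itself stood at 147, 161, 161 and 171 CPM (read counts scaled to a common library total) in shfLuc 1 to 4 and at 87.8, 2.07, 3.10 and 87.2 CPM in shPpp1r17 1 to 4. Its level was therefore far lower in shPpp1r17 2 and 3 than in shPpp1r17 1 and 4, and these same libraries lay farthest out on the first principal component on the shPpp1r17 side (31.2% of variance). The log2 fold change of Ppp1r17 over all libraries was -1.83 (SE 0.80, Benjamini-Hochberg adjusted p = 0.197 in edgeR's quasi-likelihood test), so the targeted gene itself did not pass. Of 8 DMH markers, Ppp1r17 included, none was at 0 reads in any library. Their sum was 673 to 837 CPM in shfLuc and 617, 392, 424 and 687 CPM in shPpp1r17 1 to 4. Ppp1r17 itself is part of this sum, so the sum falls where the targeted gene does. Among the markers Brs3, a bombesin-family receptor, also stood lowest in shPpp1r17 2 and 3, at 7.26 and 8.47 CPM against 29.4 to 51.1 CPM in the other libraries. Grp and Trh were lowest in these libraries too, while Pdyn, Gpr50, Npvf and Lepr were not lowest in both. Of the 8 markers 0 passed in edgeR (smallest adjusted p = 0.0910, of Brs3), where 6.06% of all tested genes did. The 9 markers of adjoining regions summed to 1137 to 2006 CPM in shfLuc and 886 to 1319 CPM in shPpp1r17. Most of this was Pmch (675 to 1566 CPM) and Hcrt (169.8 to 418 CPM), both of the lateral hypothalamus. Pomc, Fezf1, Agrp, Nr5a1 and Oxt were detected in every library at up to 12.2 CPM, Kiss1 was at 0 reads in every library and Avp at 0 in all but 1.

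In shfLuc the 33 genes spanned a wide range of transcript levels. Levels are compared between genes in TPM, transcript abundances scaled to gene length and to a common total. Cadm1, a homophilic adhesion molecule, was highest at 133 ± 9.84 TPM (SD, n = 4), followed by the neurexin Nrxn3 at 107 ± 9.03 TPM. The kinase subunit Camk2b stood at 82.8 ± 5.18 TPM, above Camk2a at 44.4 ± 7.67 TPM. Cntnap2, a neurexin-like protein that clusters potassium channels along the axon, stood at 66.8 ± 6.97 TPM, and gephyrin (Gphn) at 43.1 ± 4.30 TPM. Dlgap4 at 46.0 ± 1.64 TPM differed from Camk2a and Gphn by less than the spread of either of those genes.

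Apart from Dlgap4, the excitatory scaffolds lay in the lower part of this order. In the Dlg family Dlg1 (21.0 ± 1.49 TPM), Dlg2 (19.8 ± 2.31) and Dlg4 (17.6 ± 3.55) did not differ beyond their spread, and Dlg3 was lower at 10.98 ± 1.03 TPM. Shank1 (7.26 ± 0.76 TPM), Homer2 (7.42 ± 0.59) and Homer1 (6.94 ± 0.54) were close to each other, with Shank2 at 5.07 ± 0.55 TPM. At the bottom were Shank3 at 1.198 ± 0.34, Homer3 at 0.642 ± 0.132 and Dlgap3 at 0.520 ± 0.116 TPM, so the Dlgap family spanned nearly the whole order. Reads of these last 3 genes numbered only 11 to 54 per library, against at least 285 for every other member, which limits what can be seen for them.

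Cadm1, Gphn, Camk2a and Cntnap2 fell in shPpp1r17, and no member rose. A gene is said to have risen or fallen where edgeR's quasi-likelihood test gave a Benjamini-Hochberg adjusted p under 0.05 over all 17339 genes. By this rule 4 of 33 members fell, where 2.66% of all tested genes were lower, and 0 rose, where 3.39% were higher (6.06% in either direction). At an unadjusted p under 0.05, 6 members were lower and 1 (Dlg4) higher in edgeR. At that limit 3913 of all 17339 tested genes passed in either direction. DESeq2 and limma voom each called 4 lower and 0 higher. Over all 17339 tested genes DESeq2 called 919 lower and 984 higher, and limma voom 477 and 526. Over all 33 members the median log2 fold change was -0.11, against 0.0043 for all tested genes, and 22 were below 0, where 49.4% of all tested genes were. With each library's trend with gene length and GC content removed, the same 4 genes fell, the median was -0.03 (all tested genes -0.02) and 19 members were below 0.

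**Figure D1:**
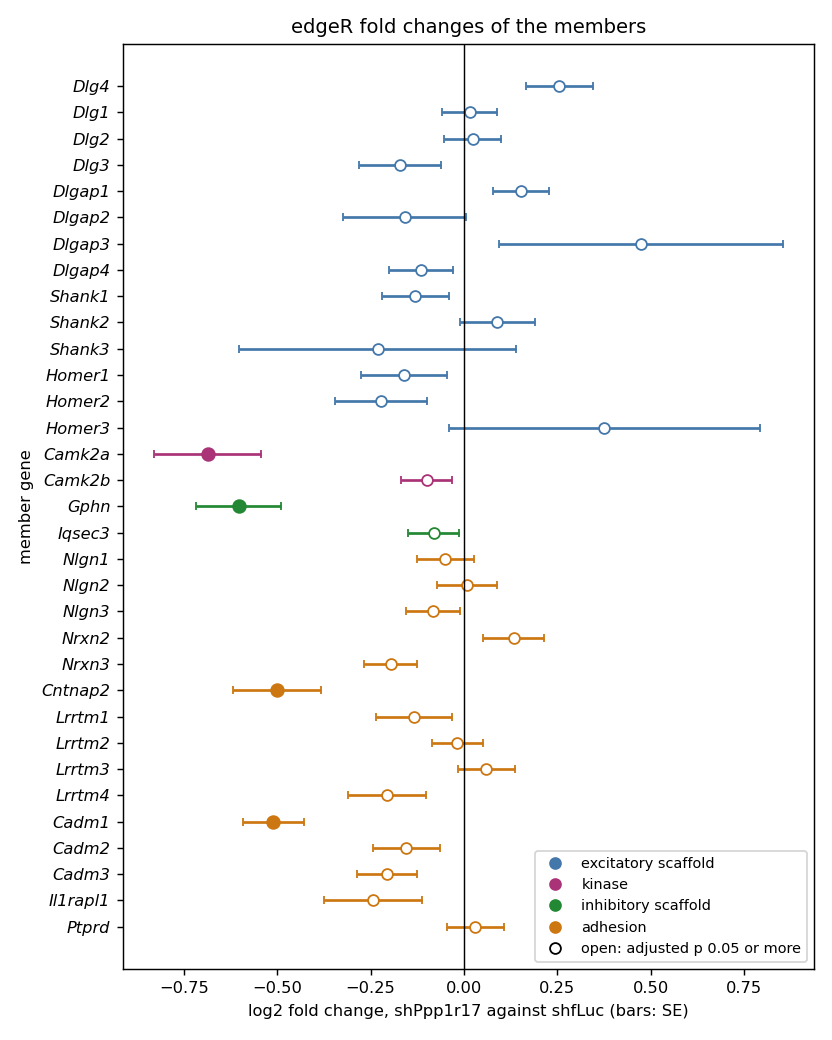
Log2 fold change of each of the 33 members in shPpp1r17 against shfLuc (x axis) with its standard error, by gene (y axis), coloured by role and filled where the adjusted p was under 0.05. The filled points are Camk2a at -0.69, Gphn at -0.60, Cadm1 at -0.51 and Cntnap2 at -0.50. No excitatory scaffold is filled, where 6.06% of all tested genes passed in either direction.

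Cadm1 had the smallest p of the set. It stood at 311, 364, 363 and 369 CPM in shfLuc 1 to 4 and at 272, 220, 242 and 253 CPM in shPpp1r17 1 to 4. The groups did not overlap, and shfLuc 1 was the lowest of its group. The log2 fold change was -0.51 (SE 0.08, adjusted p = 0.0102 in edgeR), which left 70.2% of the shfLuc mean. The gene lies at chr9:47530173-47857637 on the plus strand of GRCm38, the build of the annotation used here. No source used here names the build behind the deposited values.

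Gephyrin, the scaffold of inhibitory synapses, was next. Gphn (chr12:78226379-78684772, plus strand) stood at 74.5, 80.3, 70.3 and 73.6 CPM in shfLuc 1 to 4. In shPpp1r17 1 to 4 it stood at 57.5, 40.4, 42.6 and 56.0 CPM. Every shPpp1r17 library lay below every shfLuc library, and libraries 2 and 3 were the lowest. The log2 fold change was -0.60 (SE 0.11, adjusted p = 0.0133 in edgeR). Gphn is also expressed outside synapses, where it takes part in making the molybdenum cofactor.

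Camk2a, the alpha subunit of the kinase, had the largest fitted decrease but overlapping groups. It stood at 169, 145, 130 and 98.0 CPM in shfLuc 1 to 4 and at 101, 78.7, 81.7 and 75.6 CPM in shPpp1r17 1 to 4. The shfLuc libraries were spread widely, and shfLuc 4 lay below shPpp1r17 1. The log2 fold change was -0.69 (SE 0.14, adjusted p = 0.0183 in edgeR). Unlike Gphn, Camk2a was no lower in shPpp1r17 2 and 3 than in shPpp1r17 4.

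Cntnap2 (chr6:45059357-47304213, plus strand) stood at 179.2, 209, 239 and 248 CPM in shfLuc 1 to 4 and at 178.7, 140, 130 and 170 CPM in shPpp1r17 1 to 4. The groups met almost without a gap, between shfLuc 1 and shPpp1r17 1. Its log2 fold change was -0.50 (SE 0.12, adjusted p = 0.0291 in edgeR). The deposited gene length, which differs between libraries for most genes, averaged 4408 ± 246 bases in shfLuc and 3843 ± 243 in shPpp1r17 for Cntnap2 (SD, n = 4; exact two-sided permutation p = 0.0571, unadjusted over the 33 members). With the deposited effective length as an offset the log2 fold change shrank to -0.29 (adjusted p = 0.0742 in edgeR), so this call depended on how length was treated.

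**Figure D2:**
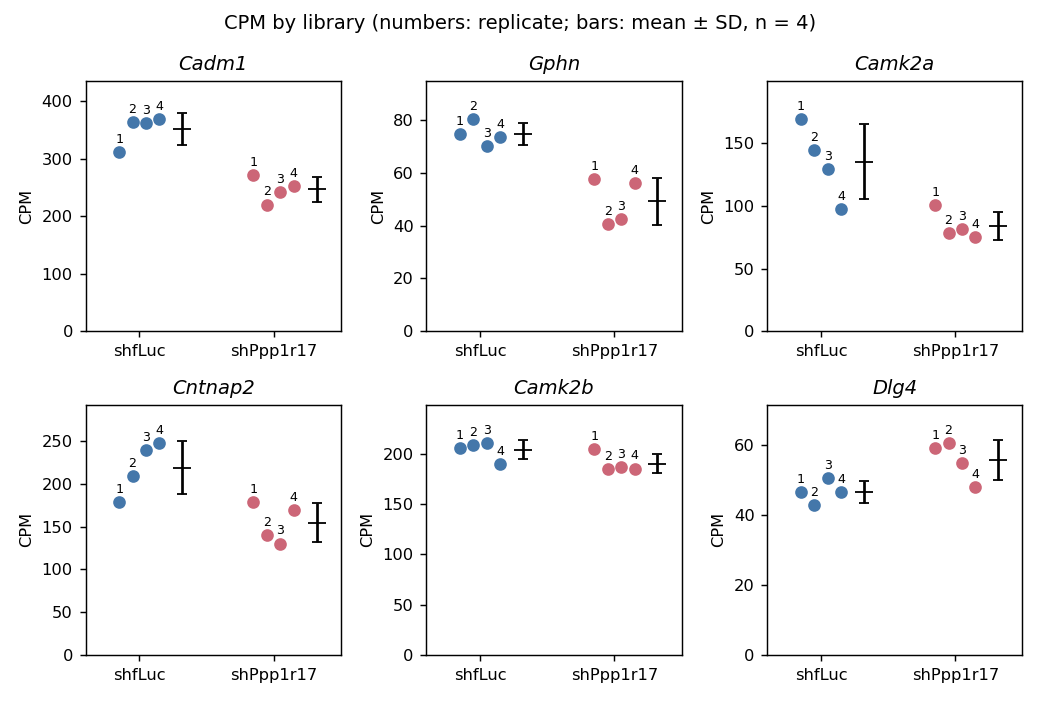
CPM (y axis, from 0) of Cadm1, Gphn, Camk2a and Cntnap2, which fell, and of Camk2b and Dlg4, which did not pass the test, in each shfLuc and shPpp1r17 library (points, numbered by replicate) with the mean and SD of each group (n = 4). The shfLuc points lie above the shPpp1r17 points for Cadm1, Gphn and Cntnap2, while Camk2a overlaps between shfLuc 4 at 98.0 and shPpp1r17 1 at 101 CPM.

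Whether these genes passed changed with single libraries left out. Without shfLuc 2 or without shfLuc 3 edgeR called 0 members lower (6 and 5 at an unadjusted p under 0.05) and 0 of all tested genes. At that unadjusted limit 3309 of 17778 and 3146 of 17773 tested genes passed in either direction. In these fits the log2 fold changes were -0.49 and -0.50 for Cadm1 and -0.57 and -0.63 for Gphn. They were -0.65 and -0.71 for Camk2a and -0.52 and -0.46 for Cntnap2 (adjusted p from 0.0505 to 0.101 in edgeR). Without shPpp1r17 2 edgeR called 2 (Gphn and Cadm1), and without shPpp1r17 3 it called 1 (Cadm1). Without both shPpp1r17 2 and 3, where Ppp1r17 was lowest, edgeR called 0 members lower (5 at an unadjusted p under 0.05) and 0.205% of all tested genes in either direction. There 2315 of 18037 tested genes had an unadjusted p under 0.05. In that fit the log2 fold changes were -0.43 for Cadm1, -0.40 for Gphn, -0.62 for Camk2a and -0.33 for Cntnap2, with adjusted p of 0.0938, 0.101, 0.195 and 0.273 in edgeR.

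Of the 14 excitatory scaffolds 0 passed in edgeR, in DESeq2 and in limma voom. Of all 17339 tested genes 1050 (6.06%), 1903 and 1003 passed in these tests. In edgeR 1 scaffold (Dlg4) had an unadjusted p under 0.05, as did 3913 of all tested genes. Dlg4, the main Dlg scaffold of the postsynaptic density, stood at 46.6, 42.9, 50.6 and 46.4 CPM in shfLuc 1 to 4 and at 59.1, 60.6, 54.9 and 48.0 CPM in shPpp1r17 1 to 4. Only shPpp1r17 4 lay within the shfLuc range. Its log2 fold change was 0.26 (SE 0.09, adjusted p = 0.112 in edgeR). Without shPpp1r17 4 it became 0.32 (adjusted p = 0.0369 in edgeR), and Dlg4 was then the 1 member called higher.

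The other Dlg genes gave 0.02 (SE 0.07) for Dlg1, 0.02 (SE 0.08) for Dlg2 and -0.17 (SE 0.11) for Dlg3 on the log2 scale, and the signs of Dlg1 and Dlg2 turned on the log2(TPM + 1) scale. Among the Dlgap linkers Dlgap1 had the smallest p. It stood at 59.0, 61.4, 64.1 and 59.8 CPM in shfLuc 1 to 4 and at 67.0, 69.4, 73.3 and 61.9 CPM in shPpp1r17 1 to 4, a log2 fold change of 0.15 (SE 0.08, adjusted p = 0.254 in edgeR) that was 0.00 to 2 decimals on the log2(TPM + 1) scale. Dlgap2 (-0.16, SE 0.16) and Dlgap4 (-0.11, SE 0.09) had negative estimates and Dlgap3 (0.47, SE 0.38) a positive one with a wide error.

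Shank1, a core scaffold that links Dlgap to Homer, stood at 35.3, 36.6, 41.6 and 44.5 CPM in shfLuc 1 to 4 and at 36.2, 35.9, 37.2 and 34.98 CPM in shPpp1r17 1 to 4 (log2 fold change -0.13, SE 0.09, adjusted p = 0.424 in edgeR). The shPpp1r17 values all sat near the low end of the shfLuc range. Shank2 gave 0.09 (SE 0.10) and Shank3 -0.23 (SE 0.37). Homer2 had the smallest p of the Homer family, at 24.6, 24.97, 24.3 and 21.4 CPM in shfLuc 1 to 4 against 20.4, 16.9, 18.9 and 25.3 CPM in shPpp1r17 1 to 4 (-0.22, SE 0.12, adjusted p = 0.316 in edgeR). The lowest Homer2 level was in shPpp1r17 2 and the highest of all libraries in shPpp1r17 4. Homer1 gave -0.16 (SE 0.12) and Homer3 0.38 (SE 0.42). Gene-level values do not separate the short, activity-induced form of Homer1 from the long scaffold form.

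Camk2b, the beta subunit, which binds actin and anchors the kinase, stood at 206, 209, 211 and 190 CPM in shfLuc 1 to 4. In shPpp1r17 1 to 4 it stood at 205, 185, 187 and 186 CPM, and its log2 fold change was -0.10 (SE 0.07, adjusted p = 0.422 in edgeR). Iqsec3, an exchange factor that binds gephyrin at inhibitory synapses, ranged from 62.8 to 66.2 CPM in shfLuc and from 59.3 to 63.8 CPM in shPpp1r17. Its log2 fold change was -0.08 (SE 0.07, adjusted p = 0.530 in edgeR). In each of these pairs 1 partner fell and the other did not pass the test.

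Ratios taken within a library compared such partners directly. The ratio of Camk2a to Camk2b CPM was 0.822, 0.692, 0.614 and 0.515 in shfLuc 1 to 4, against 0.491, 0.426, 0.438 and 0.407 in shPpp1r17 1 to 4. The groups did not overlap, although Camk2a CPM did. The difference on the log2 scale was -0.57 (exact two-sided permutation p = 0.0286, the smallest that 4 against 4 libraries allow; 0.0429 after Benjamini-Hochberg adjustment over 3 ratios). The ratio of Gphn to Dlg4, the main scaffolds of inhibitory and excitatory synapses, was 1.60, 1.87, 1.39 and 1.59 in shfLuc 1 to 4. It was 0.973, 0.667, 0.776 and 1.17 in shPpp1r17 1 to 4, again without overlap, a log2 difference of -0.87 (exact permutation p = 0.0286, adjusted 0.0429). Camk2a and Gphn were known to be lower when these ratios were chosen, so the tests are not independent of those calls.

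The ratio of Nlgn2 to Nlgn1, the neuroligins of inhibitory and excitatory synapses, gave another picture. It was 0.741, 0.797, 0.744 and 0.693 in shfLuc 1 to 4, against 0.689, 0.681, 0.897 and 0.838 in shPpp1r17 1 to 4. The shPpp1r17 values lay on both sides of the shfLuc values, and the log2 difference was 0.05 (exact permutation p = 0.657, adjusted 0.657).

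**Figure D3:**
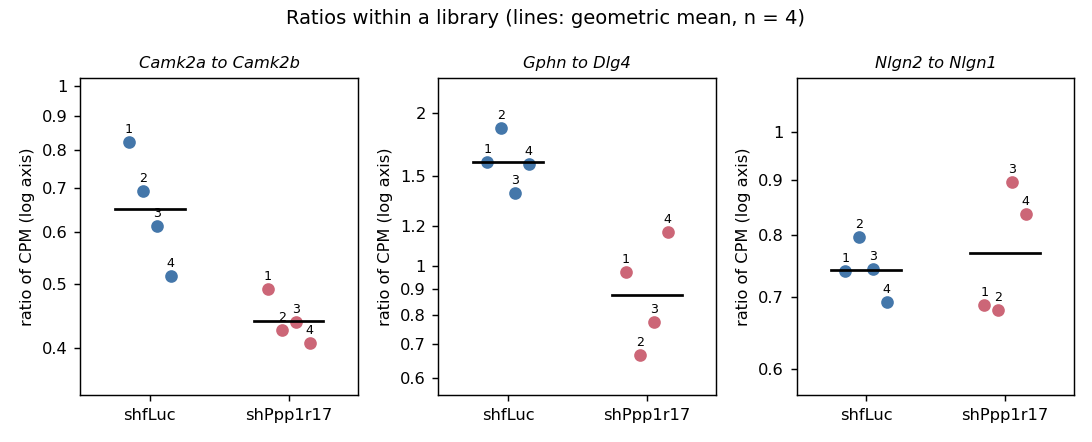
Ratio of CPM within a library (y axis, log scale) for Camk2a to Camk2b, Gphn to Dlg4 and Nlgn2 to Nlgn1, with a point for each library numbered by replicate and a line at the geometric mean of each group (n = 4). The first pair of ratios do not overlap between groups, and the Nlgn2 to Nlgn1 ratios in shPpp1r17, 0.681 to 0.897, lie on both sides of shfLuc.

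Of the 15 adhesion genes 2 fell, Cadm1 and Cntnap2, where 2.66% of all tested genes fell. A log2 fold change below 0 was found for 11 (8 with the length and GC trend removed), where 49.4% of all tested genes had one. CPM groups did not overlap for 3 of the 15, all lower in shPpp1r17. Without overlap, 6.74% of all tested genes were lower and 7.12% higher. The third was Cadm3, a neuronal Cadm protein, at 47.7, 42.0, 43.7 and 44.7 CPM in shfLuc 1 to 4, against 39.5, 35.03, 38.7 and 41.1 CPM in shPpp1r17 1 to 4. The gap between the groups was narrow, and Cadm3 did not pass across all genes (log2 fold change -0.21, SE 0.08, adjusted p = 0.148 in edgeR). Cadm2 gave -0.16 (SE 0.09), and its sign turned with the length and GC trend removed.

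Nrxn3, a presynaptic partner of neuroligins and Lrrtm proteins, stood at 392, 432, 464 and 445 CPM in shfLuc 1 to 4 and at 399, 393, 364 and 358 CPM in shPpp1r17 1 to 4. Only shfLuc 1 overlapped the shPpp1r17 range (-0.20, SE 0.07, adjusted p = 0.122 in edgeR). Nrxn2 gave 0.13 (SE 0.08). The neuroligins were close to 0: Nlgn1 gave -0.05 (SE 0.08), Nlgn2 0.01 (SE 0.08) and Nlgn3 -0.08 (SE 0.07), and the signs of Nlgn1 and Nlgn2 turned under some scalings. Nlgn3 had the smallest p of these, at 191, 204, 224 and 200.1 CPM in shfLuc 1 to 4 against 183, 208, 188 and 195 CPM in shPpp1r17 1 to 4 (adjusted p = 0.547 in edgeR).

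Among the Lrrtm genes, postsynaptic leucine-rich repeat proteins that bind neurexins, Lrrtm4 had the smallest p. It stood at 58.6, 73.9, 78.4 and 78.3 CPM in shfLuc 1 to 4 and at 65.4, 69.1, 55.1 and 61.4 CPM in shPpp1r17 1 to 4, with shfLuc 1 among the lowest of all libraries (-0.21, SE 0.10, adjusted p = 0.264 in edgeR). Lrrtm1 gave -0.13 (SE 0.10), Lrrtm2 -0.02 (SE 0.07) and Lrrtm3 0.06 (SE 0.08), and the signs of Lrrtm2 and Lrrtm3 turned with the deposited effective length as an offset. Il1rapl1, which binds Ptprd, stood at 12.8, 16.1, 15 and 15.2 CPM in shfLuc 1 to 4 and at 14.7, 11.1, 10.9 and 13.2 CPM in shPpp1r17 1 to 4 (-0.24, SE 0.13, adjusted p = 0.297 in edgeR). Ptprd gave 0.03 (SE 0.08), and its sign turned on the log2(TPM + 1) scale. Whether the counting used strand is not given here, and reads of overlapping genes may not be told apart. In the annotation Nlgn3 shares 41.2% of its exonic bases with the transcript Gm21986 on the same strand, Homer3 25.4% with Ddx49 on the opposite strand, and Lrrtm4 25.1% with the antisense gene Gm4409.

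**Figure D4:**
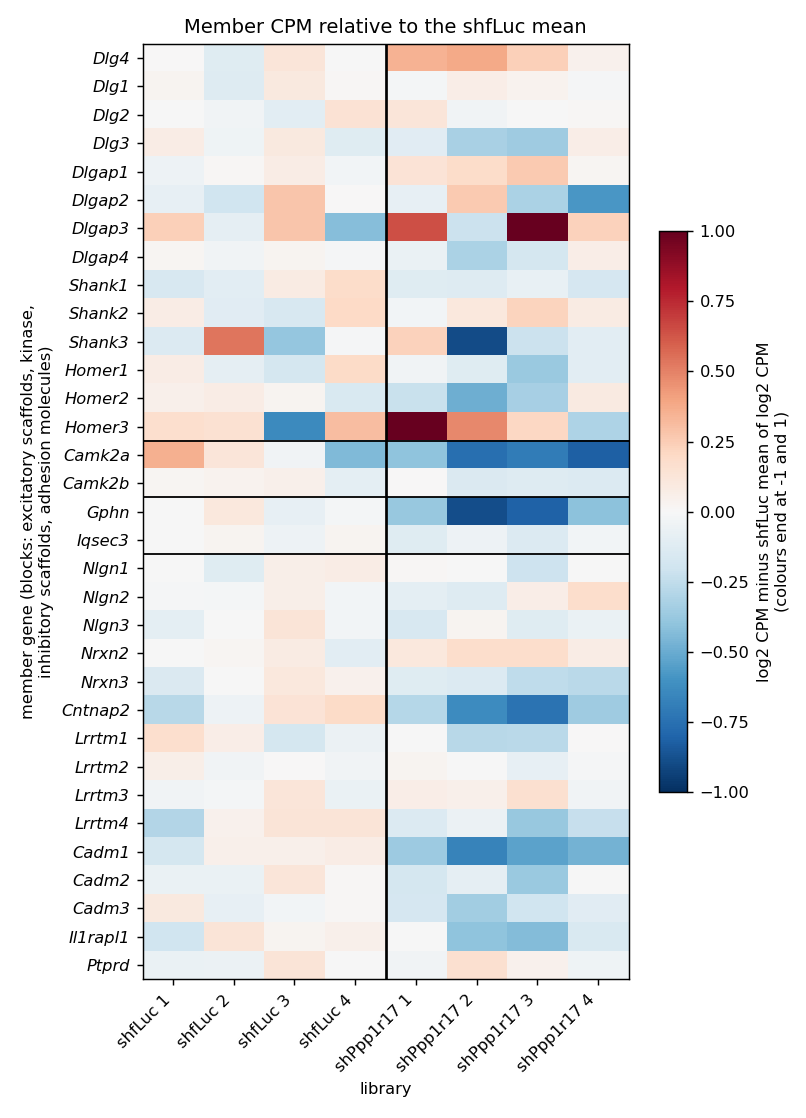
Log2 CPM of each of the 33 members (rows, in blocks by role) in each library (columns), relative to the mean of the shfLuc libraries, with colours ending at -1 and 1. Gphn, Camk2a, Cadm1 and Cntnap2 are blue in all 4 shPpp1r17 libraries, and Dlgap3, Shank3 and Homer3, with few reads, vary widely within a group.

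Across libraries the members' median deviation from the shfLuc mean was -0.03, -0.12, -0.18 and -0.03 on the log2 scale in shPpp1r17 1 to 4, against -0.02 to 0.06 in shfLuc and -0.0013 to 0.0156 for all tested genes over the 8 libraries. It was thus lowest in the libraries with the least Ppp1r17. Even there 10 of 33 members were above the shfLuc mean in each, 23 being below it. Summed over members, the level was 889 to 984 TPM in shfLuc and 801, 759, 717 and 758 TPM in shPpp1r17 1 to 4. Cadm1 alone made up 14.3% of the shfLuc sum. In CPM the sums were 2719 to 2953 in shfLuc and 2593, 2458, 2391 and 2491 in shPpp1r17 1 to 4. On the log2(TPM + 1) scale the median log2 fold change of all tested genes was -0.06. The coefficient of variation within a group had a median of 6.88% in shfLuc and 9.55% in shPpp1r17. In a bulk sample, fewer cells of a type and less RNA per cell cannot be told apart.

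Markers of cell types were measured beside these values. Of all tested genes 2.66% fell and 3.39% rose. Of 12 neuronal markers 3 fell and 1 rose, and their summed level ran from 5238 to 5369 CPM in shfLuc and from 5262 to 5720 CPM in shPpp1r17. Of 8 oligodendrocyte markers 3 rose, with sums of 1265 to 1315 CPM in shfLuc and 1406, 2154, 2300 and 1305 CPM in shPpp1r17 1 to 4. Of 10 microglia and macrophage markers 4 rose, with sums of 216 to 300.4 CPM in shfLuc and 352.5, 466, 457 and 295 CPM in shPpp1r17 1 to 4. Of 5 blood cell markers all 5 rose, from 328 to 567 CPM in shfLuc to 792, 1231, 783 and 638 CPM in shPpp1r17 1 to 4. Sums of 9 astrocyte markers were 3333 to 3741 against 3315 to 3680 CPM, with 2 risen (Gfap and S100b), 1 fallen (Slc1a3) and 4 with a log2 fold change below 0. Gfap stood at 40.7 to 85.9 CPM in shfLuc and at 119.5, 341, 246 and 110 CPM in shPpp1r17 1 to 4 (log2 fold change 1.82). Of 4 markers of oligodendrocyte precursors 1 fell (139 to 155 against 127 to 139 CPM). Of 7 endothelial and mural markers 2 rose, with sums of 164 to 185 CPM in shfLuc and 181, 271, 285.5 and 210 CPM in shPpp1r17 1 to 4. No marker of these lists was at 0 reads in any library. The part of these markers in the results above was not tested.

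Some members carry a short sequence in the 3' untranslated region (UTR) that went with lower levels across the whole dataset in an earlier look at these same libraries. The sequence is CTCTGATA, counted here as all 8 bases or as either 7-base part, CTCTGAT or TCTGATA, on the mRNA strand of the longest annotated 3' UTR of each gene. Because it was found in these libraries, its presence is not independent evidence. The matches of Cadm1 and Gphn are shown because these genes fell. Camk2a also fell and holds a match, whose sequence is not shown here. The matches of Nlgn1, Dlg2 and Dlg4 are shown because these genes hold a match and did not fall. Their log2 fold changes, -0.05, 0.02 and 0.26, were the highest of all members with a match. Every member with a match not shown here had a negative one. Each line gives 29 bases of the 3' UTR from the GENCODE M21 transcripts, 5' to 3', with the match in capitals.
Cadm1, first match: cgacagttctgCTCTGATtatttctactc
Cadm1, second match: ttattttaactTCTGATAgaaccactgca
Gphn: tcaatgctaggTCTGATAgcgatagcttt
Nlgn1: agcatttcttgCTCTGATggttctcatgt
Dlg2: tagggatgaacCTCTGATgggctctctgc
Dlg4: ccagcagtgtgTCTGATActccaggagtt

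In GRCm38 the Cadm1 matches lie at chr9:47851424-47851430 and chr9:47852383-47852389, both in exon 10, the last of that transcript. The Gphn match lies at chr12:78684178-78684184 in exon 24, also the last. Those of Nlgn1 (chr3:25428491-25428497, minus strand), Dlg2 (chr7:92444869-92444875) and Dlg4 (chr11:70032930-70032936) lie in last exons too, the Dlg4 one in a transcript of 8 exons that is not its principal one. The Cadm1 matches also lie outside the 3' UTR of the transcript that the annotation marks as principal.

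By this search 12 of 33 members (36.4%) held a match, against 18.7% of the 14261 tested genes with a 3' UTR of at least 50 bases, and in principal transcripts 8 of 33 (24.2%) against 17.3% of 14064. The members' longest 3' UTRs had a median of 3235 bases against 1225 for all genes searched, and a longer region can hold more matches. The 12 holders were Cadm1, Gphn, Camk2a, Cadm2, Dlg2, Dlg3, Dlg4, Homer2, Il1rapl1, Iqsec3, Lrrtm1 and Nlgn1. Their log2 fold changes ran from -0.69 to 0.26 with a median of -0.16, 10 were below 0 and 3 fell. The 21 others ran from -0.50 to 0.47 with a median of -0.08, 12 were below 0 and 1 fell, Cntnap2. By principal transcripts 2 of the fallen members held a match and 2 did not, Cadm1 changing side. Of all 436 searched genes that fell, 240 (55.0%) held a match in the longest 3' UTR. Over all genes searched the medians were -0.12 with a match and 0.02 without. The sequence was picked for going with lower levels in these same libraries, so these values do not test it. The 3' UTR lengths of the fallen genes were not compared.

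The deposited gene length gave a measure apart from the level. Groups did not overlap in this length for 0 of 33 members. Among these, Dlgap3 and Il1rapl1 had the same length in every library, so their groups could not be apart. Of the 13078 tested genes of varying length 1.84% were longer and 2.03% shorter in shPpp1r17 without overlap. After Cntnap2, Homer1 had a p as small (3881 ± 56.5 bases in shfLuc, 4054 ± 111 in shPpp1r17, SD, n = 4; exact permutation p = 0.0571). Gphn averaged 2553 ± 107 against 2813 ± 376 bases, and the second mean rested on 3365 bases in shPpp1r17 4.

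Other genes of the synapse were read from 4 lists. Of 11 tested organisers of inhibitory synapses besides the members, 2 fell, 0 rose and all 11 had a log2 fold change below 0 (median -0.27). Of all tested genes 2.66% fell, 3.39% rose and 49.4% had a log2 fold change below 0. Lhfpl4, which ties GABA-A receptors to neuroligin, averaged 63.8 ± 3.52 CPM in shfLuc and fell to 50.5 ± 5.04 in shPpp1r17 (SD, n = 4; change of -0.34 in log2, adjusted p = 0.0368 in edgeR). Dag1, the gene of dystroglycan, a protein found at perisomatic inhibitory synapses, fell from 45.7 ± 2.84 to 34.6 ± 5.21 CPM (-0.40, adjusted p = 0.0380 in edgeR). In these bulk samples the cells its reads came from were not measured. Slitrk3, an adhesion molecule of these synapses, did not pass (-0.27, adjusted p = 0.120 in edgeR). Neither call held with the length and GC trend removed (smallest adjusted p = 0.0525, 4 lower at an unadjusted p under 0.05) or without shPpp1r17 2 and 3 (0.209). edgeR also called 0 of the 11 with the effective length as an offset (smallest adjusted p = 0.0515). It called 0 without any 1 of the shfLuc libraries (0.0565 to 0.107), without shPpp1r17 2 (0.0640) and without shPpp1r17 3 (0.113). In these fits 3 to 5 were lower at an unadjusted p under 0.05. It called 1 without shPpp1r17 4. In the fits that called 0 of the 11, 2315 to 3881 of all tested genes passed that unadjusted limit in either direction.

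Of 37 tested other adhesion molecules 3 fell and 0 rose (median -0.16), where 2.66% of all tested genes fell and 3.39% rose. Tenm1, a teneurin, fell from 83.5 ± 6.198 to 60.1 ± 6.57 CPM (-0.47, SE 0.09, adjusted p = 0.0141 in edgeR). Adgrl3, a latrophilin that binds teneurins, fell from 49.4 ± 3.56 to 33.0 ± 7.73 CPM (-0.58, SE 0.13, adjusted p = 0.0259 in edgeR). Flrt2, another ligand of latrophilins, fell from 38.8 ± 2.10 to 29.4 ± 3.88 CPM (-0.40, SE 0.10, adjusted p = 0.0341 in edgeR). Without shPpp1r17 2 and 3 edgeR called 0 of the 37 (4 lower at an unadjusted p under 0.05, where 2315 of all 18037 tested genes passed). With the trend removed it called 2. With 1 library left out it called 0 without shfLuc 2, shfLuc 3 or shPpp1r17 3 (10, 7 and 5 lower at an unadjusted p under 0.05). At that limit 3309 of 17778, 3146 of 17773 and 2937 of 17653 tested genes passed in either direction. It called 1 without shfLuc 4 or shPpp1r17 2, and 5 without shPpp1r17 4.

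Of 34 other postsynaptic scaffold and signalling genes 0 passed in edgeR, with 6 lower and 4 higher at an unadjusted p under 0.05. At that limit 3913 of all 17339 tested genes passed in either direction. DESeq2 called 4 lower and limma voom 1, where they called 919 and 477 of all 17339 tested genes lower. The smallest p was that of Tanc2, a scaffold that binds Dlg4, with a log2 fold change of -0.32 (SE 0.09, adjusted p = 0.0512 in edgeR), followed by Magi3 (-0.45, SE 0.13) and Ppp1r9a (-0.28, SE 0.09), a phosphatase-binding protein of dendritic spines. Of 14 secreted synaptic organisers and their receptors 0 passed in edgeR (2 lower at an unadjusted p under 0.05), 2 in DESeq2 and 0 in limma voom. Lgi2 gave -0.37 (SE 0.11), Cbln4 -0.44 (SE 0.15) and Adam23 0.19 (SE 0.09).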

How the data were processed

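The authors' deposited gene tables give, per the file headers, estimated read counts and TPM of each gene with its length and effective length. In the submitters' processing notes the tools bcl2fastq, DRAGEN, edgeR and limma appear, with no role or version; the genome build is not given in the sources used here. Groups and replicate numbers came from sample titles. The expected counts, deposited unrounded by the authors, were rounded; the deposited TPM values served for levels between genes and for an alternative (pseudocount 1). Symbols matched 55141 of 55487 identifiers. CPM are scaled by TMM factors. Groups were compared by edgeR's quasi-likelihood test (4.0.16, R 4.3.3; minimum count 10, minimum total count 15; group alone). Standard errors came from the fold change and F statistic. Alternatives used DESeq2 1.42.0, limma 3.58.1, other scalings, filters and offsets, a replicate block and each library left out; fits without shPpp1r17 2 and 3, and with a trend on length and GC content taken out (GC known for 99.9% of tested genes) were added after seeing the data. The members, lists and ratios were chosen with earlier results of these data known. All members are named; full values are given for those past the threshold and for the smallest p of each role, and up to 3 genes per other list. Read counts without molecular identifiers are not independent molecules. Between replicates, chi-square per degree of freedom over gene counts was 7.48 to 41.1, so no library was a copy of another.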

Additional observations from a re-analysis of the deposited data

Results flagged for a closer look

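In 3 of the 66 groups of 4 values (33 members in each of the hairpin groups), 1 library stood apart from the others by more than Dixon's 95% limit, and chance alone gives about 1 in 20 such groups. Cadm1 in shfLuc had its lowest level, 311.2 CPM, in library 1, where the others ran from 362.9 to 368.8 CPM; that value still lay above all shPpp1r17 libraries. Camk2b in shPpp1r17 had its highest level, 204.9 CPM, in library 1, where the others ran from 184.6 to 186.8 CPM. Nlgn1 in shPpp1r17 had its lowest level, 104.4 CPM, in library 3, where the others ran from 119.8 to 120.9 CPM.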

How the results depend on the processing

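Of the alternatives, 20 in all, each of the 4 fallen members kept a negative log2 fold change in every one: Cadm1 from -0.57 to -0.43, Camk2a from -0.81 to -0.56, Gphn from -0.83 to -0.40 and Cntnap2 from -0.59 to -0.29. They lost the call in 3, 5, 4 and 9 of them. The count of members called lower ranged from 0 to 4 with each library left out and was 0 without shPpp1r17 2 and 3; that called higher ranged from 0 to 1. All genes called, 1050 in the fit described, numbered 1903 with DESeq2, 1763 with limma voom and sample quality weights, 37 without shPpp1r17 2 and 3, and 0 to 1548 with each library left out (0 without shfLuc 2 or shfLuc 3, 287 without shfLuc 4, 310 without shPpp1r17 2, 196 without shPpp1r17 3). The share of higher calls was 56.0%, and 38.8% on log2(TPM + 1). With the replicate number as a block 726 genes and 3 members passed, Cntnap2 being lost (-0.50, adjusted p = 0.0513 in edgeR), and 0 of the 11 inhibitory organisers (smallest adjusted p = 0.0539); same-numbered libraries did not deviate together (correlations from -0.01 to 0.11), so the numbers are not taken as pairs. The ratio of Camk2a to Camk2b differed by -0.68 to -0.45 and that of Gphn to Dlg4 by -1.01 to -0.74 with each library left out (largest exact permutation p = 0.0571), and Nlgn2 to Nlgn1 by -0.021 to 0.11.

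Signs turned for 11 members that did not pass the test; the cause was not tested. On log2(TPM + 1) the values were -0.062 for Dlg1, -0.16 for Dlg2, -0.00036 for Dlgap1, -0.078 for Nlgn2, -0.25 for Lrrtm3 and -0.069 for Ptprd. With effective length as an offset they were -0.081 for Dlg2, 0.013 for Lrrtm2 and -0.18 for Lrrtm3. Without shPpp1r17 2 and 3 they were -0.021 for Dlg1, 0.00063 for Dlgap4, 0.024 for Shank3, 0.0024 for Lrrtm2 and -0.043 for Ptprd. With the length and GC trend removed they were 0.065 for Nlgn1, 0.075 for Lrrtm2 and 0.009993 for Cadm2. Nlgn2 was -0.013 with sample quality weights and -0.00073 without a filter. With each library left out Dlg1 ranged from -0.026 to 0.048, Dlg2 from -0.0115 to 0.072, Nlgn2 from -0.053 to 0.0498, Lrrtm2 from -0.032 to 0.0013 and Ptprd from -0.014 to 0.076. With a minimum count of 50, Dlgap3, Shank3 and Homer3 were not tested. Few reads limit these 3 genes throughout.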
